A study of Mus musculus with 4 samples.

Results

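The genes described here encode NFAT transcription factors, subunits of the phosphatase calcineurin, and the proteins of store-operated calcium entry. They are 10 listed genes out of 20599 gene symbols in the deposited tables: *Nfatc1*, *Nfatc2*, *Nfatc3*, *Nfat5*, *Ppp3ca*, *Ppp3cb*, *Ppp3r1*, *Orai1*, *Stim1* and *Stim2*. They were chosen by name, with earlier results of these data known, and each has 1 gene entry. RNA-Seq libraries of wild-type C57BL/6 mice were compared, 2 from peritoneal B1a cells and 2 from splenic follicular B2 cells, the main B cell population of the spleen. The sample labels give an age of 4 weeks for every mouse and no treatment, whereas the study's methods give an older age for the mice of the follicular cells. A supplementary figure legend of the study gives 4 weeks for antibody repertoires drawn from RNA-Seq of both cell types. The methods describe the wild-type animals as littermate controls, 2 mice per cell type, and state that the B1a sorts held fewer cells in some cases. Differences between cell types, between tissues and, going by the methods, between ages and sorted cell numbers therefore cannot be told apart here. The *Dnmt3a*-deficient cells of the study were not analyzed here.

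Engagement of the B-cell receptor releases calcium from the endoplasmic reticulum. STIM proteins sense the emptied store and open ORAI channels in the plasma membrane, and the calcium that enters leads to the activation of calcineurin. Calcineurin removes phosphates from NFATc proteins, which then enter the nucleus, whereas NFAT5 responds to osmotic stress and is not controlled by calcineurin. NFATc1 is known to be needed for a normal B1a compartment in mice. The comparison asks whether the transcripts of this pathway differ between B1a cells, an innate-like B cell population, and conventional B cells.

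Totals lay between 11032732 and 18588623 counts per library, and the 10 genes had between 216 and 12779 counts each in every library, far above the floor of 3 counts used here for detection. The floor and the counts cover counting error only. Read sharing between genes was small for the members, with a posterior standard deviation of at most 0.0944% of the count. B cell marker genes summed to between 4846 and 6163 CPM (counts scaled to library size with TMM factors) in all libraries, B1a markers to 1182 and 893 CPM in B1a against 75.8 and 75.3 CPM in B2, and follicular markers to 596 and 496 CPM in B1a against 2553 and 2604 CPM in B2. In the B1a libraries, macrophage markers summed to 216 and 247 CPM against 64.8 and 69.5 CPM in B2, mast cell markers to 46.1 and 16.5 CPM against 1.48 and 0.941 CPM, and erythroid markers to 78.8 and 504 CPM against 36.1 and 80.8 CPM. T cell markers summed to 69.9 and 28.3 CPM in B1a and 45.6 and 50.0 CPM in B2, with *Cd4* and *Cd28* at 0 counts in both B1a libraries. NK cell markers summed to at most 6.86 CPM and neutrophil markers to at most 8.42 CPM in any library. In the B1a libraries 7 of 9 macrophage markers, 5 of 5 mast cell markers and 5 of 8 T cell markers were above 3 counts, with the macrophage markers *Fcgr1* and *Vsig4* at 0. The macrophage and mast cell sums thus moved with the B1a label, and their part in the results below was not tested. Not every macrophage marker moved. *Lyz2* was at 127.4 and 135.6 CPM in B1a and 16.84 and 27.17 CPM in B2. *Csf1r* was at 16.85 and 21.85 CPM in B1a and 21.17 and 18.36 CPM in B2. In bulk libraries, fewer cells of a type and less RNA per cell cannot be told apart. The B1a replicates differed more from each other than the B2 replicates did, with a Pearson correlation of log2 CPM across genes of 0.836 against 0.966. Between the cell types it was 0.788 to 0.858, so the B1a replicates correlated no better than some B1a libraries did with B2; genes are not independent replicates.

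Upstream sequence was taken from RefSeq (GRCm38.p6) for 8 of the 10 genes, all but *Nfatc1* and *Ppp3ca*, as 10 windows of 250 bases that end just before an annotated start. *Nfatc2* and *Nfatc3* have 2 annotated starts each, and their second windows lie inside the gene. The *Stim1* window, at 102267569 to 102267818, also lies inside its gene, whose span begins at 102261514. The *Nfat5* window ends at 107293469, within a span that begins at 107293435. The windows were searched on both strands for GGAAA, the core that NFAT proteins bind, which shares its first bases with the GGAA core of ETS factors; TTTCC is the same core on the other strand. At least 1 match was found in 5 of the 10 windows, against 55.6% of all 32851 windows in the table. The matches lay in 4 genes, *Nfatc2*, *Nfatc3*, *Nfat5* and *Ppp3cb*, and the windows of *Ppp3r1*, *Orai1*, *Stim1* and *Stim2* held none. A match is a description of letters and not a binding site. The windows with the most matches are shown beside that of *Stim2*, which had none, with the matches in capitals. On GRCm38.p6 they are chr14:20546574-20546823 (minus strand) for *Ppp3cb*, chr2:168601658-168601907 (minus strand) for *Nfatc2*, chr8:107293220-107293469 (plus strand) for *Nfat5* and chr5:53998273-53998522 (plus strand) for *Stim2*, each printed 5′ to 3′ on its gene's strand.
Ppp3cb: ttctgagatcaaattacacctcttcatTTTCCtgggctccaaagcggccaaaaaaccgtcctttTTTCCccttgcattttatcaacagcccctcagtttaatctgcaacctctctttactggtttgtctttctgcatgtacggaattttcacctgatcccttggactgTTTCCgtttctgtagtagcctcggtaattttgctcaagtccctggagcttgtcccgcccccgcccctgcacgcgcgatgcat
Nfatc2: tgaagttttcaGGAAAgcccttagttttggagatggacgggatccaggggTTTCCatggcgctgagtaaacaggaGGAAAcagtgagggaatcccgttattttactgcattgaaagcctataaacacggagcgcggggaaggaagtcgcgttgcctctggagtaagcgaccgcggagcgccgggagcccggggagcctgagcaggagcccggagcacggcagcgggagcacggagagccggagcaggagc
Nfat5: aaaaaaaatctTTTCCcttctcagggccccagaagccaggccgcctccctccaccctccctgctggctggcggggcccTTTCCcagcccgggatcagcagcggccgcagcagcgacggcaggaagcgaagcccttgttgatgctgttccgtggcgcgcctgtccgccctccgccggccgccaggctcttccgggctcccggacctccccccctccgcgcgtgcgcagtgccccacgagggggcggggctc
Stim2: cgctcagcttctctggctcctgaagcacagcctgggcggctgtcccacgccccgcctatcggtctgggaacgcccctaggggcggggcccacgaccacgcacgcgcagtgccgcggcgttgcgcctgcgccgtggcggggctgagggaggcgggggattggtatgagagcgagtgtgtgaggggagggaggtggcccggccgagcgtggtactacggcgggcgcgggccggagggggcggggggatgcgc

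The *Ppp3cb* window and the first *Nfatc2* window held 3 matches each, and 6.39% of all windows held 3 or more. The *Nfat5* window held 2. CpG dinucleotides are the sites of DNA methylation. Of the 10 windows, 9 held more CpG dinucleotides than the median of 6 over all windows. *Stim2* and *Orai1* held 30 each, *Stim1* 31 and *Ppp3r1* 29, while the first *Nfatc3* window held 6.

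Expression of *Nfatc1* was higher in B1a cells than in B2 cells, and it was the only member past the threshold in the fit over all genes. Its level was 1145 and 1012 CPM in the B1a replicates and 565 and 544 CPM in the B2 replicates. Both B1a libraries lay above both B2 libraries, and the gap between the groups was larger than the distance between replicates. The log2 fold change was 0.96 (standard error 0.11, edgeR quasi-likelihood test, Benjamini-Hochberg adjusted p = 0.00887), a 1.94-fold difference in a gene on chromosome 18. Beside this 1 of 10 members, 5.74% of all tested genes were called, made up of 4.24% higher in B1a (512 genes) and 1.50% higher in B2 (181 genes); on log2(TPM + 1) the split was 266 to 233 (limma). With each library left out in turn, *Nfatc1* stayed past the threshold. On log2(TPM + 1), where all genes shift toward B2 by a median of -0.295, its log2 fold change was 0.69 and did not pass (limma, adjusted p = 0.0537). Relative to the median of all genes it was 0.989 on that scale and 0.987 in the count fit (log2).

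**Figure D1:**
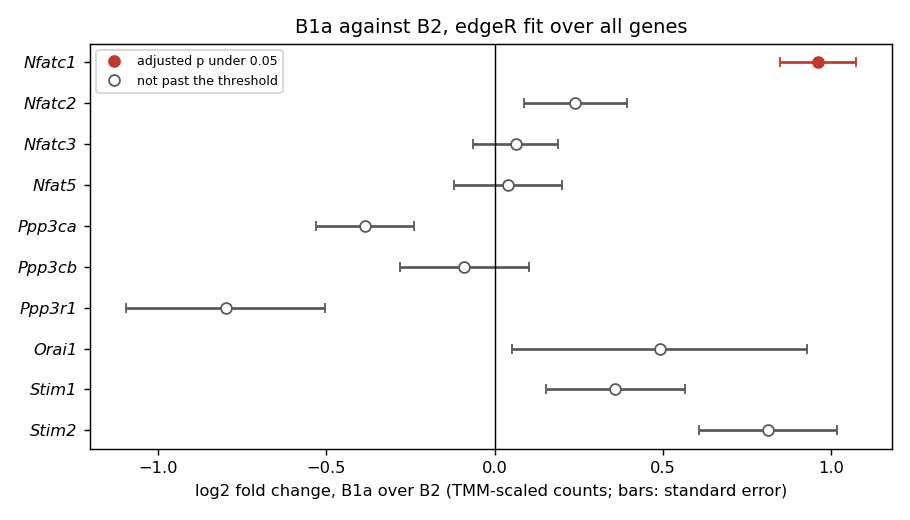
Log2 fold change of B1a over B2 cells for each of the 10 genes, from TMM-scaled counts; points are the fitted values and bars the standard errors, with 2 libraries per cell type. The *Nfatc1* point, at 0.96, is filled because it passed the threshold; the 9 open points did not.

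None of the other 3 NFAT genes passed the threshold in the edgeR fit, nor had an unadjusted p under 0.05. *Nfatc2* (chromosome 2, 168476410 to 168601657) encodes NFAT1, a family member present in resting lymphocytes. It was found at 136 and 140 CPM in B1a and 122 and 112 CPM in B2 libraries. The groups did not overlap on this scale, but the log2 fold change was only 0.24 (standard error 0.15, adjusted p = 0.459, edgeR). *Nfatc3* (chromosome 8, 106058818 to 106130537) was found at 502 and 495 CPM in B1a and 439 and 516 CPM in B2 libraries, and the groups overlapped. Its log2 fold change was 0.06 (standard error 0.13, adjusted p = 0.852, edgeR). *Nfat5* (chromosome 8, 107293435 to 107379517), the osmotic stress factor, was found at 583 and 486 CPM in B1a and 462 and 578 CPM in B2 libraries. One library of each cell type was high and one low, and the log2 fold change was 0.04 (standard error 0.16, adjusted p = 0.928, edgeR). The signs of these 3 differences turned negative on the TPM scale, which carries the shift of all genes given above. Relative to the median of all genes, *Nfatc2* lay between 0.132 and 0.355 in every fit made.

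Levels can be compared between genes only per transcript length, for which the deposited TPM values were used. *Nfatc1* was the most abundant of the 10 in every library, at 569 and 489 TPM in B1a and 335 and 317 TPM in B2. This placed it at rank 221 and 247 among all gene symbols in the B1a libraries and at rank 401 and 424 in the B2 libraries. *Nfatc3* followed in every library with 195 and 188 TPM in B1a and 201 and 232 TPM in B2. The ranges of *Nfatc1* and *Nfatc3* did not overlap in either cell type. Below them, *Nfat5* at 148 and 117 TPM and *Ppp3ca* at 102 and 119 TPM overlapped in B1a cells, and *Nfat5* at 139 and 173 TPM and *Ppp3ca* at 164 and 177 TPM overlapped in B2 cells. *Orai1* was the least abundant member in every library, between 24.9 and 44.2 TPM. In B1a cells each neighbouring pair from *Stim1* down to *Orai1* had overlapping ranges, in the order *Stim1*, *Ppp3cb*, *Nfatc2*, *Ppp3r1*, *Stim2* and *Orai1*, so that neighbours in this order are not resolved by 2 libraries. In B2 cells *Ppp3r1* lay above *Ppp3cb*, and *Ppp3cb* above *Stim1*, without overlap.

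**Figure D2:**
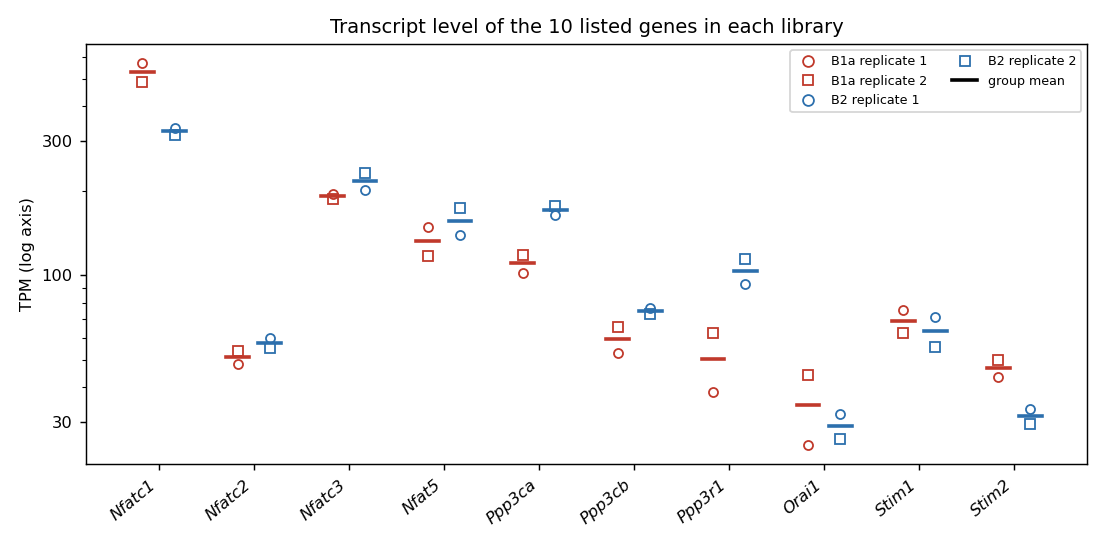
TPM of each of the 10 genes in each library on a log axis; circles are replicate 1, squares replicate 2, red B1a and blue B2, and short lines are the means of 2 libraries. *Nfatc1* lies highest in every library, at 489 and 569 TPM in B1a and 317 and 335 TPM in B2, and *Orai1* lowest.

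The makeup of the calcineurin-regulated NFATc transcripts does not depend on scaling between libraries. *Nfatc1* made up 70.0% and 66.9% of the summed TPM of *Nfatc1*, *Nfatc2* and *Nfatc3* in the B1a replicates and 56.2% and 52.5% in the B2 replicates. *Nfatc3* made up 24.0% and 25.7% in B1a and 33.7% and 38.4% in B2, and *Nfatc2* 5.96% and 7.40% in B1a and 10.1% and 9.11% in B2. The groups did not overlap for any of the 3 shares, but the shares of a library add up to the whole. A larger *Nfatc1* share leaves less for *Nfatc2* and *Nfatc3*, so the 3 shares are not separate results. The *Nfatc1* share was 68.5% ± 2.20 in B1a and 54.3% ± 2.65 in B2 (SD, n = 2 each), a difference of 14.1 percentage points. A two-sided exact permutation test of 2 against 2 libraries gave p = 0.333, the smallest it allows. There were 9.05 to 11.7 *Nfatc1* transcripts per *Nfatc2* transcript in B1a libraries and 5.58 to 5.76 in B2 libraries.

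**Figure D3:**
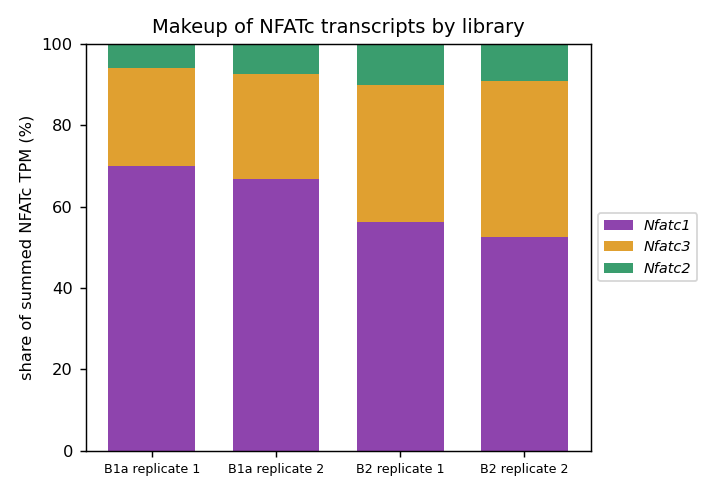
Share of *Nfatc1*, *Nfatc3* and *Nfatc2* in the summed TPM of these 3 genes, in percent, with 1 bar per library starting at 0. The *Nfatc1* part takes 70.0% and 66.9% of the B1a bars and 56.2% and 52.5% of the B2 bars.

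Several members have more than 1 annotated transcript, and RSEM gives for each gene the mean transcript length weighted by abundance. For *Nfatc2*, with 16 transcripts, this length was 6550 and 5904 bases in the B1a replicates and 5585 and 5521 bases in the B2 replicates. For *Nfatc1*, with 6 transcripts, it was 4720 and 4737 bases in B1a and 4659 and 4667 bases in B2, and for *Nfat5*, with 3 transcripts, 9163 and 9422 bases in B1a and 9095 and 8974 bases in B2. Reads of these 3 genes were thus assigned to longer transcripts in both B1a libraries than in either B2 library, by the most for *Nfatc2*. *Ppp3ca*, with 2 transcripts, had overlapping lengths between 4816 and 4823 bases. Among 2207 genes with several transcripts and at least 100 counts in every library, 13.3% were longer in both B1a libraries and 23.6% in both B2 libraries. On the CPM scale both B1a libraries lay above both B2 libraries for *Nfatc2*. In TPM, both B2 libraries at 60.0 and 55.0 lay above both B1a libraries at 48.5 and 54.0. TPM divides by this length, but it also carries the shift of all genes, a median of -0.295 on log2(TPM + 1). Relative to that median, *Nfatc2* stayed positive, at 0.266 in the count fit and 0.132 on log2(TPM + 1). *Nfatc3*, with 1 transcript and thus a fixed length, also lay higher in both B2 libraries in TPM. The part of transcript length in the turn of *Nfatc2* was not tested.

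The calcineurin genes had lower fitted values in B1a than in B2 cells, but 0 of 3 passed the threshold in the edgeR fit; 2 of the 3 had an unadjusted p under 0.05, as did 20.9% of all genes tested. *Ppp3r1* (chromosome 11, 17159298 to 17200380) encodes the regulatory subunit calcineurin B, which binds calcium. It was found at 45.8 and 76.2 CPM in B1a and 94.6 and 118 CPM in B2 libraries. Both B2 libraries were higher than both B1a libraries, with B1a replicate 1 the lowest. The log2 fold change of -0.80 (standard error 0.29) did not pass (adjusted p = 0.198, edgeR). Without B1a replicate 1 it was -0.48 with an adjusted p of 0.0378, and without B1a replicate 2 -1.21 with an adjusted p of 8e-08 (edgeR). In those fits the spread comes from the B2 pair alone, and 4064 and 6241 genes passed. Without B2 replicate 1 or 2, where the spread comes from the B1a pair, the adjusted p of *Ppp3r1* was 0.365 and 1 (edgeR).

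*Ppp3ca* (chromosome 3, 136669714 to 136937727) encodes the alpha isoform of the catalytic subunit. It was found at 210 and 250.2 CPM in B1a and 287 and 314 CPM in B2 libraries. The groups did not overlap, and the log2 fold change was -0.39 (standard error 0.14, adjusted p = 0.207, edgeR). Without B1a replicate 2 it was -0.52 with an adjusted p of 0.000738 (edgeR), again with the spread taken from the B2 pair, and without each other library in turn the adjusted p was 0.123 or more. *Ppp3cb* (chromosome 14, 20499364 to 20546573), the beta isoform, was found at 87.4 and 111 CPM in B1a and 107 and 104 CPM in B2 libraries. The groups overlapped and the log2 fold change was -0.09 (standard error 0.19, adjusted p = 0.862, edgeR). *Ppp3ca* made up 65.9% and 64.3% of the summed TPM of both isoforms in B1a and 68.3% and 70.7% in B2, so the alpha isoform was the more abundant of these in all 4 libraries. With the gamma isoform *Ppp3cc* included, the *Ppp3ca* share was 41.2% in both cell types (means, n = 2 each), and *Ppp3cc*, at 161 and 176 TPM in B2, was close to *Ppp3ca* there. There were 2.66 and 1.91 *Ppp3ca* transcripts per *Ppp3r1* transcript in B1a and 1.76 and 1.55 in B2 libraries.

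Of the calcium entry genes, *Stim2* came closest to the threshold. *Stim2* (chromosome 5, 53998523 to 54121057) encodes a sensor of small falls of calcium in the endoplasmic reticulum. It was found at 91.4 and 107 CPM in B1a and 59.7 and 53.5 CPM in B2 libraries. Both B1a libraries lay above both B2 libraries, and the distance between the groups was larger than that between replicates. The log2 fold change of 0.81 (standard error 0.20), a 1.76-fold difference, did not pass over all genes (adjusted p = 0.0905, edgeR). It passed with DESeq2 (adjusted p = 0.0278) and with limma-voom weighted by cell type (adjusted p = 0.0222). It did not pass with upper quartile factors (edgeR, adjusted p = 0.115) or on the TPM scales (limma, adjusted p = 0.234 and 0.23). Its adjusted p was 3.75e-05 without B1a replicate 1 and 0.0026 without B1a replicate 2, where the spread comes from the B2 pair, and 0.505 and 0.795 without B2 replicates 1 and 2 (edgeR).

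*Stim1* (chromosome 7, 102261514 to 102437319), the main sensor that opens ORAI channels, was found at 115 and 98.3 CPM in B1a and 92.7 and 73.7 CPM in B2 libraries. B1a replicate 2 lay just above B2 replicate 1, and the log2 fold change was 0.36 (standard error 0.21, adjusted p = 0.404, edgeR; 0.0268 without B1a replicate 2 and at least 0.339 without each other library). *Stim1* made up 63.2% and 55.6% of the summed *Stim1* and *Stim2* TPM in B1a and 68.0% and 65.3% in B2. The *Stim1* transcript was thus the more abundant in all 4 libraries, with a smaller share in both B1a libraries. *Orai1* (chromosome 5, 123015074 to 123030452) encodes the pore of the calcium release-activated channel and was found at 19.4 and 35.3 CPM in B1a and 21.3 and 17.6 CPM in B2 libraries. The B1a replicates lay on either side of B2 replicate 1, the widest replicate difference of any member. The log2 fold change was 0.49 (standard error 0.44, adjusted p = 0.613, edgeR); it was 0.86 with an adjusted p of 0.0104 without B1a replicate 1, and -0.0027 with an adjusted p of 0.995 without B1a replicate 2 (edgeR). Without B2 replicate 1 or 2 its adjusted p was 1 in both cases (edgeR).

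In all, the B1a and B2 libraries did not overlap for 6 of the 10 members in CPM, 4 with B1a above and 2 with B2 above, against 54.3% of all tested genes, 25.3% with B1a above and 29.1% with B2 above. The median log2 fold change of the members was 0.15, beside -0.03 for all 12078 tested genes. The share of members whose groups did not overlap was thus near the background.

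**Figure D4:**
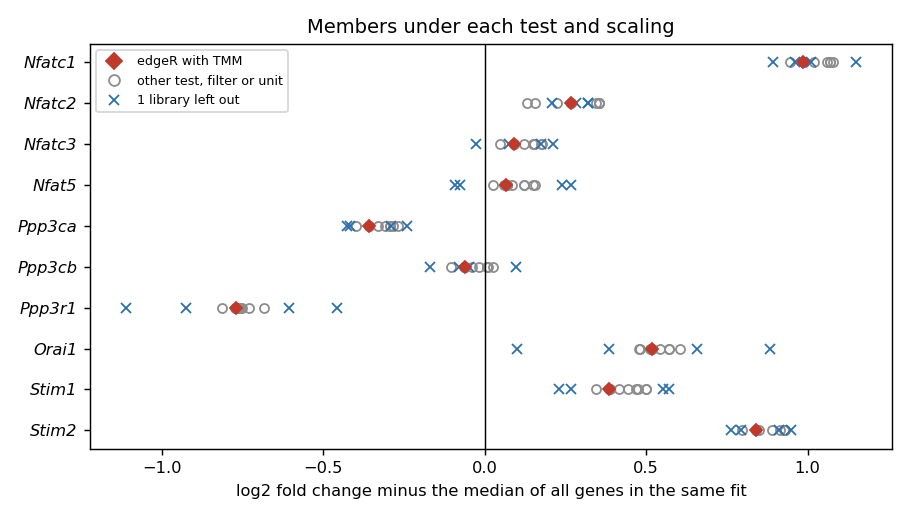
Log2 fold change of each member minus the median of all genes in the same fit, for edgeR with TMM (diamonds), the other tests, filters and units (circles) and fits with 1 library left out (crosses). *Nfatc1* lies between 0.892 and 1.15 and *Stim2* between 0.762 and 0.948 in every fit, whereas *Orai1* spreads from 0.0986 to 0.885 with the library left out.

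Other genes of the pathway were taken from 6 lists with 75 genes, of which 60 could be tested. The lists were drawn up with earlier results of these data known. Their shares beside those of all genes are therefore a description and no test of an excess, in all 6 lists. Of these, 7 were higher and 2 were lower in B1a cells, beside the 5.74% called over all genes, and their median log2 fold change was 0.06. The calls in the calcium list were 6 of 25 tested genes, all higher in B1a cells, beside 4.24% of all tested genes in that direction, and the list median was 0.07. The potassium channel gene *Kcnn4*, whose product keeps the driving force for calcium entry, was found at 153 and 122 CPM in B1a and 10.2 and 6.43 CPM in B2 libraries (log2 fold change 4.06, standard error 0.32, adjusted p = 0.00281, edgeR). Another potassium channel gene of this list, *Kcna3*, named after its values were seen, had a negative log2 fold change of -0.615 (adjusted p = 0.599, edgeR). It was found at 27.9 and 95.0 CPM in B1a and 92.5 and 95.7 CPM in B2 libraries, which overlapped. The mitochondrial calcium uniporter *Mcu* was found at 112 and 110 CPM in B1a and 21.9 and 22.6 CPM in B2 (log2 fold change 2.31, adjusted p = 0.00428, edgeR). The pumps that clear calcium from the cytosol, *Atp2a3* (SERCA3) and *Atp2b1* (PMCA1), rose with log2 fold changes of 1.22 and 1.53 (adjusted p = 0.00402 and 0.00976, edgeR). *Atp2b1* did not pass on log2(TPM + 0.1) (limma, adjusted p = 0.0501). *Orai2* and *Orai3*, chosen after their values were seen, had log2 fold changes of 0.03 and 0.61 and did not pass. *Orai2* made up 53.1% and 41.8% of the summed *Orai* TPM in B1a and 53.6% and 61.8% in B2, above *Orai1* in every library.

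Among NFAT kinases and nuclear transport factors, 2 of 11 tested genes were called, both lower in B1a cells, beside 1.50% of all tested genes in that direction. *Lrrk2*, a kinase known to hold NFAT in the cytoplasm, was found at 136 and 80.4 CPM in B1a and 797 and 882 CPM in B2 libraries (log2 fold change -2.96, standard error 0.26, adjusted p = 0.00402, edgeR). *Dyrk2*, which phosphorylates NFAT, had a log2 fold change of -1.47 (adjusted p = 0.0487, edgeR) and lost its call without B2 replicate 1 (adjusted p = 0.268) or B2 replicate 2 (adjusted p = 0.161). The list median was -0.30, and *Csnk1a1*, with the highest TPM averaged over all libraries but below *Lrrk2* in both B2 libraries, had a log2 fold change of 0.16 (adjusted p = 0.826, edgeR; 0.0036 without B1a replicate 1 and at least 0.105 without each other library). Of 9 tested calcineurin regulators 0 passed in the edgeR fit, 5 having an unadjusted p under 0.05 (20.9% over all tested genes), and the median log2 fold change was 0.32. These include *Ppia*, the cyclophilin bound by cyclosporin, with a log2 fold change of 0.32, and *Homer3*, a scaffold that competes with calcineurin for NFAT, with -2.38 (adjusted p = 0.23 and 0.155, edgeR). Among the 10 alternatives that kept all libraries, *Homer3* passed in 1, DESeq2 (adjusted p = 0.0297). Neither *Ppp3cc*, the gamma catalytic isoform (log2 fold change -0.52), nor *Nfatc2ip* (log2 fold change -0.87) passed (adjusted p = 0.274 and 0.251, edgeR). *Nfatc4* and *Ppp3r2* had at most 3 counts in any library and were not tested.

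Of 19 genes described as NFAT targets in lymphocytes, 9 could be tested and 1 was called, beside 5.74% of all tested genes, and 7 of the 9 had an unadjusted p under 0.05, beside 20.9% of all tested genes. The log2 fold change was positive for 6 of the 9 and negative for 3. The negative values were *Egr3* at -0.74, *Tnf* at -1.17 and *Rcan1* at -0.196, named after their values were seen. *Rcan1*, which is also in the list of calcineurin regulators, was not among the 7 (adjusted p = 0.931, edgeR). It was found at 5.56 and 6.83 CPM in B1a and 7.98 and 6.22 CPM in B2 libraries. The list median was 0.71. *Ctla4*, an inhibitory receptor, was found at 166 and 134 CPM in B1a and 0.52 and 1.62 CPM in B2 libraries (log2 fold change 7.02, standard error 0.49, adjusted p = 0.00212, edgeR). *Ctla4* is also expressed by T cells, whose markers in the B1a libraries ranged from *Cd4* and *Cd28* at 0 to *Cd3d* at 14.6 and 18.3 CPM and *Cd8a* at 23.9 and 4.32 CPM, and their part in this result was not tested. *Irf4*, the target with the highest TPM averaged over all libraries though not in B2 alone, was found at 355 and 530 CPM in B1a and 263 and 274 CPM in B2, and it did not pass with a log2 fold change of 0.72 (adjusted p = 0.119, edgeR; 7.31e-14 and 0.0056 without B1a replicates 1 and 2, and 0.154 and 0.0957 without B2 replicates 1 and 2). The cytokine genes *Il2*, *Il3*, *Il4* and *Csf2*, also named after their values were seen, had 0 counts in all libraries. *Cd5* was used to sort the cells, so its level is no finding here, yet it is included in the 7 of 9 and in the list median of 0.71. Of 5 tested NFAT5 targets 0 passed in the edgeR fit, with 2 at an unadjusted p under 0.05 (20.9% over all tested genes) and a list median of 0.05. *Slc38a2* had a log2 fold change of 0.24, and the taurine transporter *Slc6a6* of 0.76 (adjusted p = 0.421 and 0.142, edgeR). *Slc6a6* passed in 4 of the 10 alternatives that kept all libraries. It passed with DESeq2 (adjusted p = 0.0213), for example, and did not with limma-voom (adjusted p = 0.105). Its log2 fold change was 1.05 and 0.392 without B1a replicates 1 and 2, and 0.749 and 0.772 without B2 replicates 1 and 2 (edgeR).

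**Figure D5:**
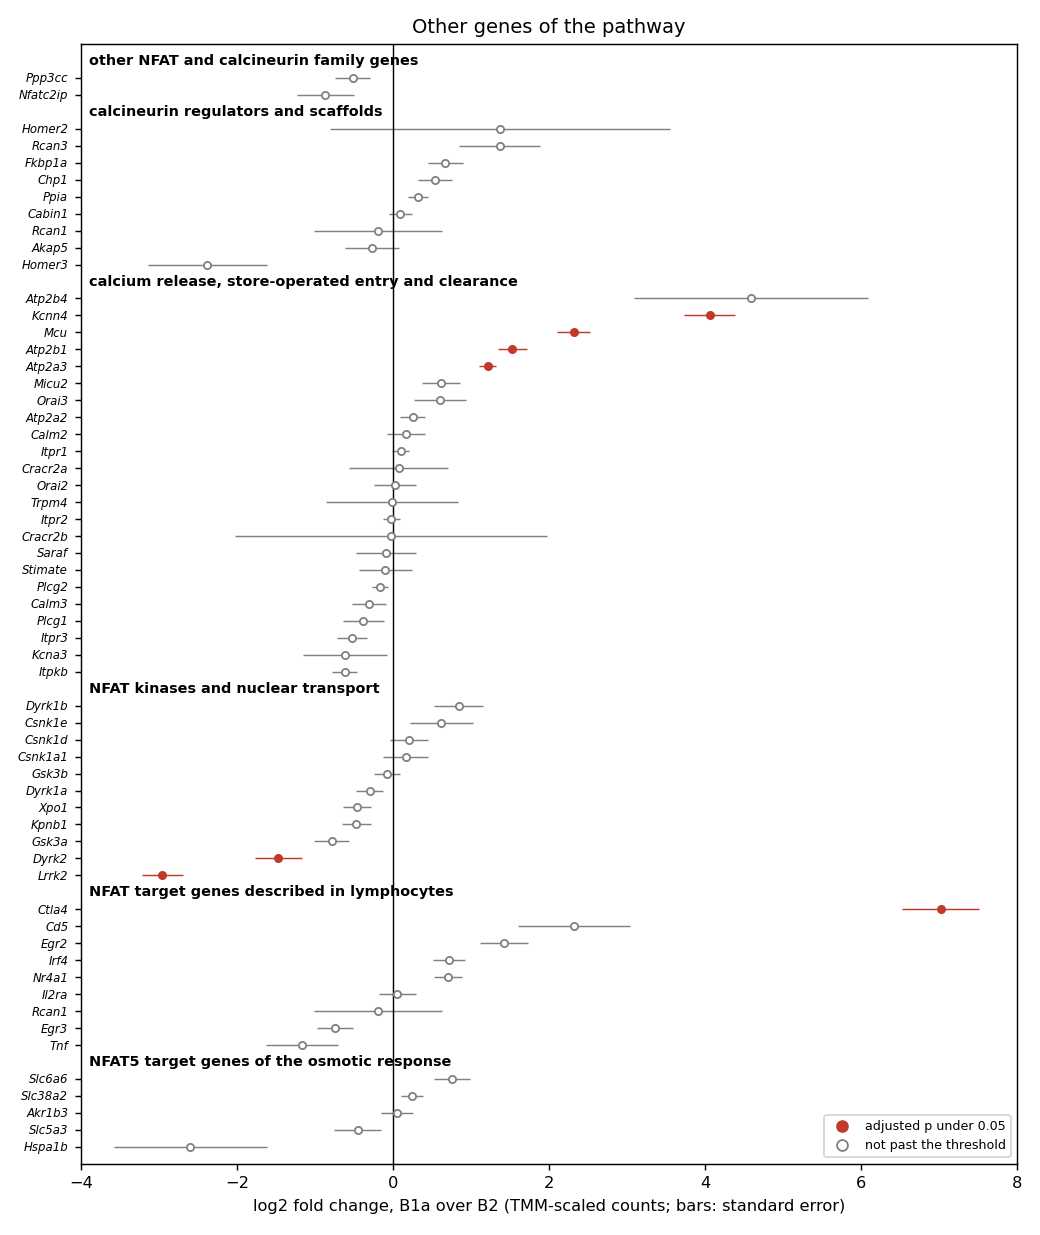
Log2 fold change of B1a over B2 cells for tested genes of the 6 pathway lists, leaving out those not reported here, with standard errors as bars; filled points passed the threshold. The filled points are *Kcnn4*, *Mcu*, *Atp2b1*, *Atp2a3* and *Ctla4* to the right of 0, and *Dyrk2* and *Lrrk2* to the left.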

How the data were processed

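RNA-Seq libraries of sorted wild-type B1a and B2 cells (2 each) were used as the authors deposited them, as gene tables from RSEM with an expected count, a TPM value, an abundance-weighted transcript length and a posterior standard deviation of the count. The submitters' processing notes name RSEM 1.2.29, and the study's methods name another version. The posterior standard deviation, a signal that is never negative, was deposited as RSEM wrote it. The labels describe ribosomal RNA depletion before library preparation, whereas the paper's discussion states that polyadenylated RNA was enriched. The deposited expected counts and TPM values were summed per gene symbol (951 symbols had several entries), and counts were rounded to whole numbers. The main test was edgeR 4.0.16 (R 4.3.3; quasi-likelihood, TMM factors, filterByExpr) of B1a against B2 over 12078 genes, with Benjamini-Hochberg adjustment and a threshold of 0.05. DESeq2 1.42.0, limma 3.58.1 (voom, and log2 of TPM plus 1 or 0.1 leaving out genes whose mean TPM was under 1), upper quartile factors, other count filters, unsummed entries, a replicate block and leaving out each library were tried. Scripts were tested on simulated data. From the pathway lists, the genes past the threshold and the most abundant gene of each list were named, and, in lists without a call, the gene with the lowest p. Some called genes are counted but not reported here by name. The members and lists were chosen with earlier results of these data known. The labels do not say whether libraries of a group came from separate mice (the methods give 2 mice), so p-values measure the spread between these libraries.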

Additional observations from a re-analysis of the deposited data

How the results depend on the processing

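The counts of calls moved with the test. Over all genes, 693 were called with edgeR, 1550 with DESeq2, 1415 with limma-voom weighted by cell type, 1141 with at least 1 count in any library, 359 on log2(TPM + 0.1) and 1481 with a replicate block. Leaving out 1 library gave 547 to 6241, with 4064 without B1a replicate 1 and 6241 without B1a replicate 2; these fits assume that the lone sample varies like the other group. Of the 10 members, 1 was called with edgeR, 2 with DESeq2, 2 with the weighted limma-voom, 0 on both TPM scales (limma, with 3 at an unadjusted p under 0.05), 3 with a replicate block and 1 to 5 with a library left out (4 without B1a replicate 1, 5 without B1a replicate 2). Of the pathway genes, 9 were called with edgeR, 20 with DESeq2, 19 with the weighted limma-voom, 15 with at least 1 count in any library, 17 with a replicate block and 7 to 39 with a library left out (31 without B1a replicate 1, 39 without B1a replicate 2). The cause was not tested.

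*Nfatc1* passed in 12 of 14 alternatives and *Stim2* in 5 of 14. *Nfatc1* missed the threshold on both TPM scales (limma, adjusted p = 0.0537 and 0.0659). *Dyrk2* lost its call with entries not summed (edgeR, adjusted p = 0.0556). Signs turned for small differences in log2. *Nfatc2* was -0.164 on log2(TPM + 1) and -0.166 on log2(TPM + 0.1). *Nfatc3* was -0.00604 with upper quartile factors, -0.173 on both TPM scales and -0.0488 to 0.183 with a library of B2 left out (lowest without replicate 1). *Nfat5* was -0.0288 with upper quartile factors, -0.237 and -0.239 on the TPM scales, -0.0987 without B1a replicate 1 and, at the ends of the range, -0.112 without B2 replicate 1 and 0.21 without B2 replicate 2. *Ppp3cb* was 0.074 without B1a replicate 1 and -0.273 without B1a replicate 2, and *Orai1* 0.862 and -0.00274. *Csnk1a1* was -0.137 and -0.138 on the TPM scales, 0.528 without B1a replicate 1 and -0.325 without B1a replicate 2. Replicate numbers are shared by mice of different groups only as numbers, with a correlation of their deviations of -0.0347. With the replicate block *Stim2* and *Ppp3r1* passed (edgeR, adjusted p = 0.045 and 0.0289). The smallest member count was 216, and the number of libraries, 2 per cell type, limits these tests. Of the members, *Ppp3ca* passed without B1a replicate 2 (log2 fold change -0.517) and in no other alternative tried.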
